A study of Homo sapiens with 12 samples.

Results

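TEAD1-NCOA2 was compared directly with YAP5SA in HEK293T, a cell line of human embryonic kidney that expresses SV40 large T antigen. The comparison took the 3 libraries of cells transfected with a TEAD1-NCOA2 plasmid and the 3 libraries of cells transfected with a YAP5SA plasmid, which are 6 of the 12 libraries of the series. TEAD1-NCOA2 is a gene fusion of rhabdomyosarcoma that joins the DNA-binding part of TEAD1 to the activation domains of the coactivator NCOA2. YAP5SA is an activated YAP that can no longer be phosphorylated by the LATS kinases. Both groups were wild-type HEK293T cells with transient plasmid expression, and 3 libraries of cells with the empty vector pcDNA3.1 are given beside them as the background level. The remaining 3 libraries carried VGLL2-NCOA2, a related fusion. Expression came from plasmids in a single line, the share of cells that took up a plasmid was not analysed here, and the study describes its triplicates as processed independently without saying whether they were separate transfections, so that p-values measure only the spread between libraries, which may be technical. RNA-seq values were FPKM, fragments per kilobase of gene scaled to the library size, deposited as a separate table for each group. Each difference below is TEAD1-NCOA2 minus YAP5SA on the log2(FPKM + 1) scale ± its standard error, tested with limma.

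In the Hippo pathway, the kinases MST and LATS phosphorylate YAP and TAZ and keep them out of the nucleus. When the kinases are inactive, YAP binds TEAD factors, which recognize the sequence GGAATG in DNA, and switches on genes such as CTGF and CYR61. NCOA2 belongs to the p160 coactivators, which bind nuclear receptors and bring the acetyltransferases CBP and p300 to chromatin. The question of the comparison is how far a fusion that carries its own TEAD DNA-binding domain and an activated YAP lead to the same transcriptome.

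The tables of the groups differed before any gene was tested. With TEAD1-NCOA2, 100% of the low FPKM values corresponded to a whole number of fragments, with a tolerance of 0.05. Back-calculated in this way, 14140996 to 15559838 fragments per library were assigned to genes. In the YAP5SA libraries 20.6% to 22.4% of the low values were whole, where 10% is the share by chance. Their number of gene-assigned fragments is therefore unknown, and for sequenced reads the paper states only a minimum. More genes had a value above 0 with YAP5SA, and the counts were 24860 ± 440 genes with TEAD1-NCOA2 and 31058 ± 144 with YAP5SA (SD, n = 3 each; exact permutation p = 0.1, the smallest that 3 against 3 libraries allow). The mitochondrial chromosome took 7.95 ± 1.80% of the sum of FPKM times gene length with TEAD1-NCOA2 and 4.01 ± 0.556% with YAP5SA. YAP5SA replicate 3 stood apart, with correlations of 0.903 to 0.907 to the other YAP5SA libraries, which correlated at 0.983 with each other. The TEAD1-NCOA2 libraries correlated at 0.982 to 0.987.

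The transfected genes were read in every library. TEAD1 had 58.1, 50.8 and 49.7 FPKM in the TEAD1-NCOA2 libraries, against 12.2, 12.2 and 15.7 FPKM in the YAP5SA libraries. All TEAD1-NCOA2 libraries lay above all YAP5SA libraries, at a difference of 1.92 ± 0.13 (adjusted p = 0.00069), and the empty vector gave 3.23 ± 0.284 FPKM (SD, n = 3). YAP1 had 8.31, 8.51 and 8.3 FPKM in the TEAD1-NCOA2 libraries, against 3369, 3912 and 5779 FPKM in the YAP5SA libraries, the other way round, with a difference of -8.82 ± 0.23 (adjusted p = 4.3e-05) and 5.33 ± 1.06 FPKM in the control. The YAP5SA mean of YAP1 was 520.0 times the TEAD1-NCOA2 mean, and the TEAD1-NCOA2 mean of TEAD1 was 3.97 times the YAP5SA mean. These ratios cannot be compared as plasmid levels. The fusion carries only part of TEAD1, while FPKM takes the length of the whole gene. TEAD1 also averaged 13.3 FPKM with YAP5SA and 11.7 FPKM with VGLL2-NCOA2, above the control, where no plasmid carried TEAD1. Exact permutation of FPKM gave p = 0.1 for TEAD1 and for YAP1.

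NCOA2, the other fusion partner, was highest in the TEAD1-NCOA2 libraries, without overlap, and uneven among the YAP5SA libraries. Its values were 279, 246 and 251 FPKM in the TEAD1-NCOA2 libraries, against 0, 0 and 141 FPKM in the YAP5SA libraries. YAP5SA replicates 1 and 2 were listed at 0, below the 1.94 ± 0.571 FPKM of the empty vector, while replicate 3 was far above it. VGLL2, a TEAD cofactor that neither plasmid carries, was also high in that library alone. It had 0.0573, 0.427 and 0.242 FPKM in the TEAD1-NCOA2 libraries, against 0, 0 and 54.4 FPKM in the YAP5SA libraries. In the VGLL2-NCOA2 libraries, which were transfected with both of these sequences, NCOA2 averaged 613 FPKM and VGLL2 257 FPKM. The source of the NCOA2 and VGLL2 signal in YAP5SA replicate 3 was not tested, and where leaving that library out, with the same genes tested, changes the calls of a list, the new count or the genes are given. NCOA2 was not called over all 6 libraries, at a difference of 5.64 ± 1.89 (adjusted p = 0.0559), and was called without YAP5SA replicate 3, at 8.02.

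**Figure D1:**
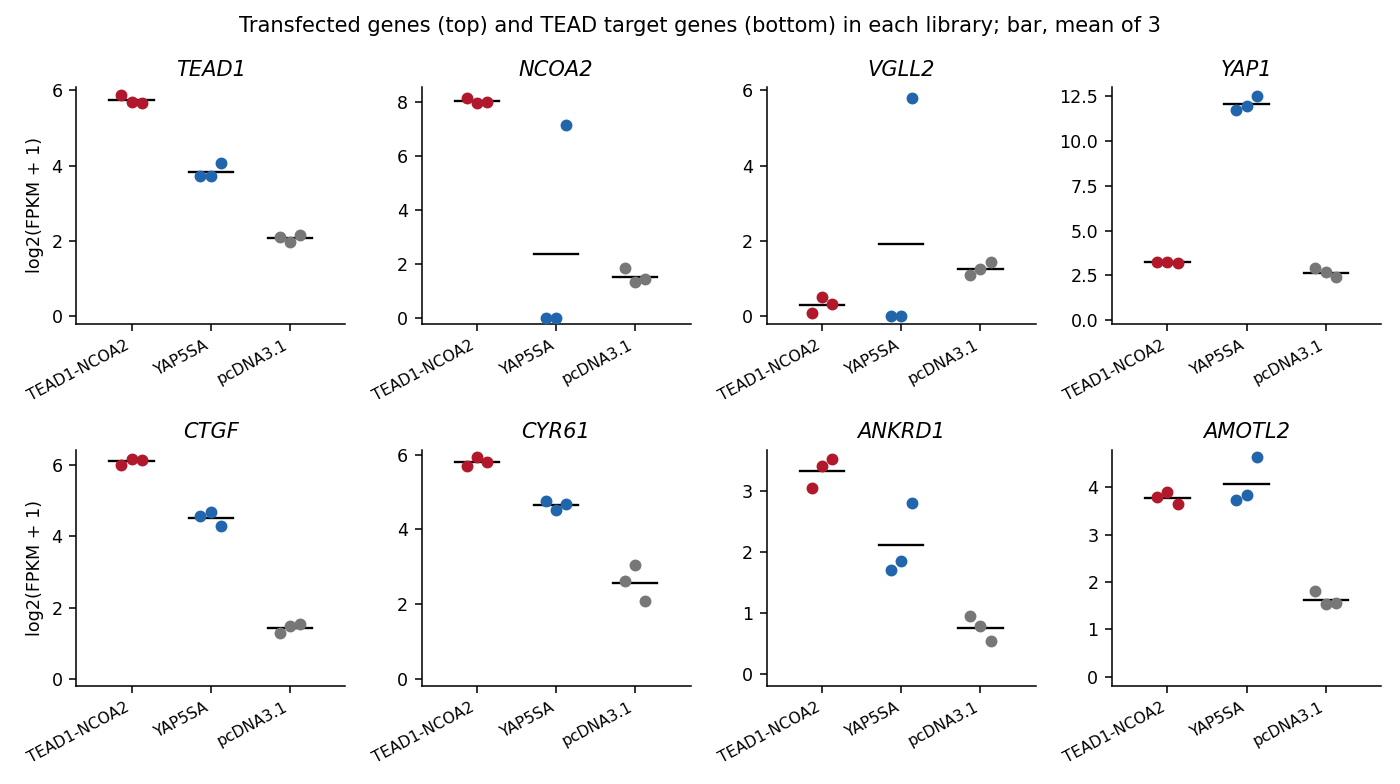
Expression as log2(FPKM + 1) of the transfected genes TEAD1, NCOA2, VGLL2 and YAP1 (top) and of the TEAD target genes CTGF, CYR61, ANKRD1 and AMOTL2 (bottom), with a point per library and a bar at the mean of 3, for TEAD1-NCOA2, YAP5SA and the empty vector pcDNA3.1. CTGF and CYR61 were higher in all TEAD1-NCOA2 libraries than in all YAP5SA libraries, AMOTL2 overlapped, and a single YAP5SA library held NCOA2 and VGLL2.

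Of the 4 TEAD target genes that the study followed, 3 were higher with TEAD1-NCOA2 than with YAP5SA. They are known TEAD targets that the study itself displayed from these libraries, so they are no independent evidence of a direction. CTGF, a secreted matricellular protein of the CCN family (chromosome 6, 131948176 to 131951373, GRCh38), had 62.8, 71.6 and 70.1 FPKM in the TEAD1-NCOA2 libraries, against 22.7, 24.5 and 18.6 FPKM in the YAP5SA libraries. It was higher in every TEAD1-NCOA2 library, by 1.60 ± 0.13 (adjusted p = 0.00095), with 1.73 ± 0.236 FPKM in the control. CYR61, of the same family (chromosome 1, 85580761 to 85583962), had 51, 60.1 and 54.6 FPKM in the TEAD1-NCOA2 libraries, against 26, 21.9 and 24.5 FPKM in the YAP5SA libraries. It was also higher without overlap, by 1.16 ± 0.11 (adjusted p = 0.00132), with 5.17 ± 1.97 FPKM in the control.

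ANKRD1, a cofactor of muscle and stress transcription (chromosome 10, 90912096 to 90921276), had 7.33, 9.64 and 10.5 FPKM in the TEAD1-NCOA2 libraries, against 2.28, 2.61 and 6 FPKM in the YAP5SA libraries. The groups did not overlap, the difference was 1.21 ± 0.30 (adjusted p = 0.022) and the control had 0.706 ± 0.244 FPKM, but YAP5SA replicate 3 lay close to the TEAD1-NCOA2 libraries. Without it the difference was 1.55. AMOTL2, an angiomotin that binds YAP and restrains it (chromosome 3, 134355874 to 134375479), was the exception. Its values were 12.9, 14 and 11.5 FPKM in the TEAD1-NCOA2 libraries, against 12.2, 13.3 and 23.8 FPKM in the YAP5SA libraries. The groups overlapped and the difference was -0.28 ± 0.24 (adjusted p = 0.40), with a control level of 2.11 ± 0.338 FPKM. Without YAP5SA replicate 3 the AMOTL2 difference was 0.00045, against 1.49 for CTGF.

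The sequences before the start sites of CTGF, ANKRD1 and AMOTL2 are shown because both proteins act through the TEAD site GGAATG. They are the 250 bases before the RefSeq start on GRCh38.p14, all on the minus strand and written 5′ to 3′, with GGAATG or its reverse complement CATTCC in capitals. CCN2 is the current symbol of CTGF. CYR61 was named only.
CTGF (CCN2), chr6:131951373-131951622: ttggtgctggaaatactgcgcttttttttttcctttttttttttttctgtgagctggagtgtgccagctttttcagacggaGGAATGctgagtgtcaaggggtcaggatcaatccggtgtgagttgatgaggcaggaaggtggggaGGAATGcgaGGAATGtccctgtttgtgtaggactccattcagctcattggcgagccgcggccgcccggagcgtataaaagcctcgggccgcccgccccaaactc
ANKRD1, chr10:90921088-90921337: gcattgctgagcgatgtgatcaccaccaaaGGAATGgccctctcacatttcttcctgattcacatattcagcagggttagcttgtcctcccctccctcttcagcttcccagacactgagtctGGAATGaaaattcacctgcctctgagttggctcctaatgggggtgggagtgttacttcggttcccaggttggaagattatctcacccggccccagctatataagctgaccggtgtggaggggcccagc
AMOTL2, chr3:134374448-134374697: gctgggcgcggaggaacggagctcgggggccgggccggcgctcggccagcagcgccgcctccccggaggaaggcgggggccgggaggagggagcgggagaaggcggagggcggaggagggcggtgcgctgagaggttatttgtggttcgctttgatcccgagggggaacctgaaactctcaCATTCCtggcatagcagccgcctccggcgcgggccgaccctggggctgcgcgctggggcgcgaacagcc
The CTGF sequence held 3 matches, which lay 169, 104 and 95 bases before the start. ANKRD1 held 2 matches, 220 and 128 bases before the start. AMOTL2 held 1 match, 69 bases before the start, and its other RefSeq start (chr3:134375418-134375667) had 0. Both strands were searched, and 11.9% of 35116 promoters held at least 1 match, while 29 promoters held 3 or more. Among genes with a RefSeq promoter, a match was present in 13.2% of 144 genes higher with TEAD1-NCOA2, in 17.3% of 255 genes lower, and in 12.7% of 9585 tested genes. These matches describe letters in a window and say nothing of binding.

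The wider YAP-TEAD target signature held no further calls. Of 16 tested members, 3 were higher and 0 lower with TEAD1-NCOA2, and CTGF, CYR61 and ANKRD1 were the 3 that were higher. All over the transcriptome 1.67% of 14610 tested genes were called higher and 4.56% lower, at an adjusted p under 0.05 and a log2 difference past 1. The median difference of the signature was -0.22 (-0.043 after scaling), beside -0.10 (0.10 after scaling) over all genes, where scaling is the median-of-ratios method. LATS2, a kinase that YAP induces as feedback, averaged 5.12 ± 0.266 FPKM with TEAD1-NCOA2 and 9.39 ± 2.36 FPKM with YAP5SA, a difference of -0.74 ± 0.16 (adjusted p = 0.0137), which did not pass the threshold of 1. FJX1, a Golgi kinase-like protein of the Fat pathway, was -0.45 and ASAP1, a regulator of small GTPases, -0.38. GADD45A, a stress gene, was 0.99 ± 0.40 (adjusted p = 0.0957) and passed the thresholds after scaling, at 1.23. CRIM1, a transmembrane protein that binds BMP ligands, was 0.18. The other 6 members, AXL, IGFBP3, MYOF, NT5E, RBMS3 and TGFB2, stayed under the filter of 1 FPKM in 3 libraries.

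TEAD factors and their cofactors gave 1 higher and 1 lower with TEAD1-NCOA2 of 8 tested, namely the transfected TEAD1 and YAP1. TEAD4 averaged 15.1 ± 1.39 FPKM with TEAD1-NCOA2 and 18.4 ± 1.07 FPKM with YAP5SA, TEAD2 differed by 0.29 and TEAD3 by 0.47, and WWTR1, which encodes TAZ, by -0.22. None of these 4 passed the threshold. VGLL4, a cofactor that competes with YAP for TEAD, averaged 3.32 ± 0.264 FPKM with TEAD1-NCOA2 and 5.66 ± 0.695 FPKM with YAP5SA, a difference of -0.62 ± 0.10 (adjusted p = 0.00551).

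Among 35 tested Hippo components, 1 was higher and 1 lower with TEAD1-NCOA2, and the median was -0.17 (0.069 after scaling). LATS1, the kinase that phosphorylates YAP, had 7.52, 6.42 and 7.22 FPKM in the TEAD1-NCOA2 libraries, against 15.4, 16.8 and 20.3 FPKM in the YAP5SA libraries. The YAP5SA libraries were all higher, at -1.19 ± 0.12 (adjusted p = 0.00146), and the control had 4.73 ± 0.551 FPKM. After median-of-ratios scaling LATS1 was -0.96 and no longer past the threshold. STK25, a kinase of the STRIPAK complex, went the other way, with 34.8, 39 and 37.1 FPKM in the TEAD1-NCOA2 libraries, against 17.3, 17.2 and 12.8 FPKM in the YAP5SA libraries. It was higher with TEAD1-NCOA2 by 1.19 ± 0.13 (adjusted p = 0.00196), with 47.4 ± 1.25 FPKM in the control. Both LATS1 and STK25 lost the call when the median of the surrounding 5 Mb was taken out, at -0.59 and 0.78, a correction described with the genome windows. The upstream kinases STK3 and STK4 were -0.064 and -0.13, and NF2 was -0.036.

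The p160 coactivators and acetyltransferases had 0 of 17 tested members called in either direction over the 6 libraries, with a median of -0.15 (0.048 after scaling). The acetyltransferase genes EP300 and CREBBP were at -0.91 and -0.93, short of the threshold of 1. EP300 averaged 9.57 ± 0.465 FPKM with TEAD1-NCOA2 and 19.3 ± 5.51 FPKM with YAP5SA, and CREBBP 7.62 ± 0.361 FPKM with TEAD1-NCOA2 and 15.8 ± 4.64 FPKM with YAP5SA. The list had 1 higher call, NCOA2, when YAP5SA replicate 3 was left out. PRMT1, an arginine methyltransferase of the same complexes, was among the most abundant members at 45.6 ± 3.11 FPKM with TEAD1-NCOA2 and 38 ± 7.64 FPKM with YAP5SA, a difference of 0.27 ± 0.16 (adjusted p = 0.23).

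Across all genes, more were lower with TEAD1-NCOA2 than higher. Among the 14610 genes that reached 1 FPKM in 3 or more of the 6 libraries, 244 were higher and 666 lower. This balance depended on the scaling. After median-of-ratios scaling 523 were higher and 413 lower, the median difference of all genes moving by 0.20, and with quantile normalization 298 were higher and 377 lower. Without YAP5SA replicate 3, and with the same genes tested, 206 were higher and 752 lower. Of the 244 higher genes 194 were protein-coding, and of the 666 lower genes 328. Lower calls made up 13.7% of 519 tested lincRNA genes and 11.2% of 552 processed pseudogenes, against 2.84% of 11567 protein-coding genes. Some smaller classes had larger shares, with 26.5% of 102 miscellaneous RNA genes, 23.0% of 113 snRNA genes and 22.8% of 127 unprocessed pseudogenes. Antisense genes had 6.72% of 714. The higher number of genes above 0 with YAP5SA moved with these calls, and its part in them was not tested. In 56.0% of tested genes the groups did not overlap, and among the calls in 243 of the 244 and 664 of the 666.

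**Figure D2:**
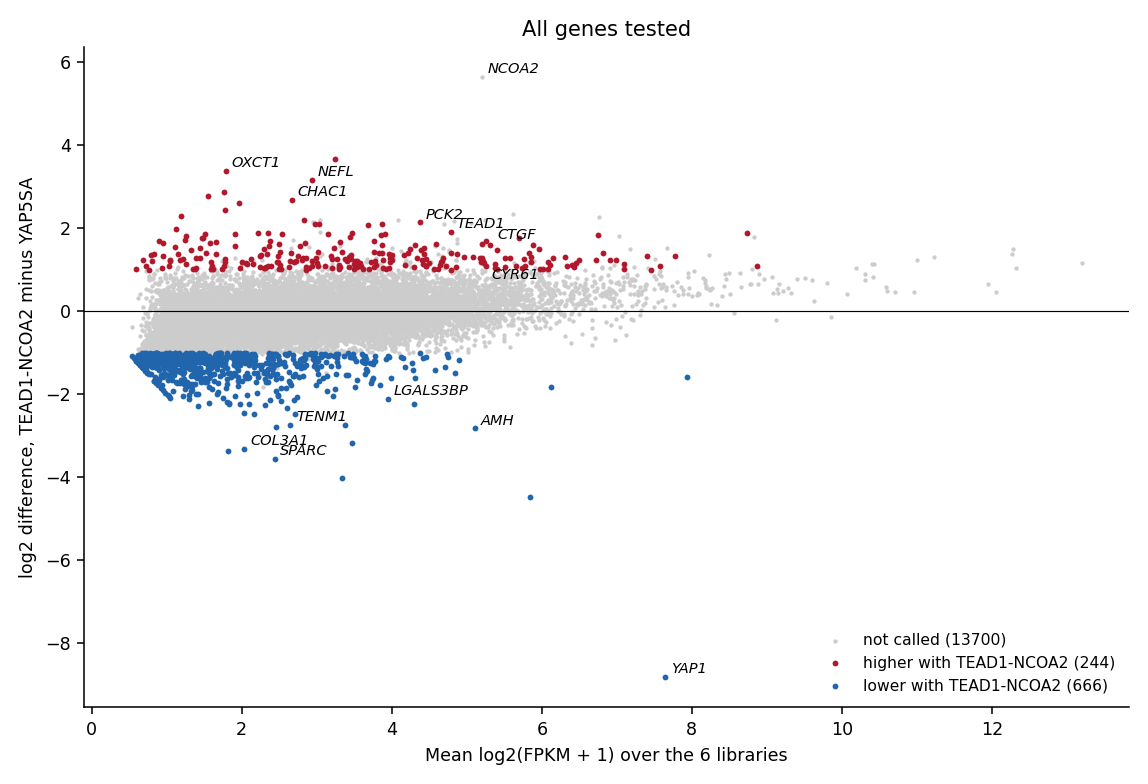
Difference of each of 14610 tested genes, TEAD1-NCOA2 minus YAP5SA in log2(FPKM + 1), against its mean log2(FPKM + 1) over the 6 libraries, with genes called higher (244) and lower (666) coloured and 14 genes named. YAP1 was the most extreme at -8.82, the lower calls gathered at low levels, and NCOA2 stood at 5.64 without a call.

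The level in the empty vector placed these differences. For 145 of the 244 higher genes the control mean lay above both plasmids, for 90 between them and for 9 below both. For the 666 lower genes these counts were 67 above both, 319 between and 280 below both. The control was nearer to TEAD1-NCOA2 than to YAP5SA in 200 of the 244 higher genes and in 520 of the 666 lower genes. These counts are a description of unscaled means and share the control libraries with each plasmid. They were not made over all tested genes, so no background share stands beside them. The sum of FPKM averaged 397555 in the control, 277070 with TEAD1-NCOA2 and 227032 with YAP5SA. How far the counts follow these sums was not tested.

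The leading genes that were higher with TEAD1-NCOA2 were chosen among 116 protein-coding genes that kept the call after scaling and without YAP5SA replicate 3, did not overlap and averaged 5 FPKM or more with TEAD1-NCOA2. OXCT1, the mitochondrial enzyme that lets cells burn ketone bodies, came at the top, with 9.04, 10.4 and 11.2 FPKM in the TEAD1-NCOA2 libraries, against 0.0451, 0.105 and 0.0509 FPKM in the YAP5SA libraries. It was nearly silent in every YAP5SA library, at a difference of 3.39 ± 0.10 (adjusted p = 5.1e-05), and the control had 3.71 ± 0.531 FPKM, so that the plasmids lay on opposite sides of the background. SLC7A3, a carrier of arginine and other cationic amino acids, had 6.52, 7.58 and 6.04 FPKM in the TEAD1-NCOA2 libraries, against 0.0877, 0.0899 and 0.175 FPKM in the YAP5SA libraries. CTSF, a lysosomal cysteine protease, had 7.82, 8.39 and 8.3 FPKM in the TEAD1-NCOA2 libraries, against 0.208, 0.32 and 0.227 FPKM in the YAP5SA libraries. Both were near 0 with YAP5SA in all 3 libraries and at 11.4 ± 1.37 FPKM and 11.4 ± 2.26 FPKM in the control, and the differences were 2.78 ± 0.10 (adjusted p = 0.00014) and 2.87 ± 0.08 (adjusted p = 5.1e-05). OXCT1, SLC7A3 and CTSF were the 3 tested genes at 5 FPKM or more in all TEAD1-NCOA2 libraries and under 0.5 FPKM in all YAP5SA libraries.

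NEFL, the light subunit of neurofilaments, had 19.8, 23.6 and 22.4 FPKM in the TEAD1-NCOA2 libraries, against 1.35, 2.14 and 1.25 FPKM in the YAP5SA libraries. Its difference was 3.17 ± 0.15 (adjusted p = 0.00025), and both groups were below the 45 ± 3.1 FPKM of the control. CHAC1, which degrades glutathione, had 13.4, 17.3 and 14.9 FPKM in the TEAD1-NCOA2 libraries, against 2.66, 2.12 and 0.387 FPKM in the YAP5SA libraries, a difference of 2.68 ± 0.36 (adjusted p = 0.00299) below a control of 46.4 ± 3.15 FPKM. G0S2, an inhibitor of the lipase that opens lipid droplets, had 7.16, 11.2 and 7.96 FPKM in the TEAD1-NCOA2 libraries, against 1.07, 0.937 and 0 FPKM in the YAP5SA libraries, and YAP5SA replicate 3 was listed at 0. The G0S2 difference was 2.60 ± 0.31 (adjusted p = 0.0022) and the control far higher, at 67.2 ± 7.16 FPKM. CTSZ, another lysosomal protease, had 5.68, 7.8 and 7.74 FPKM in the TEAD1-NCOA2 libraries, against 0.332, 0.401 and 0.719 FPKM in the YAP5SA libraries, a difference of 2.44 ± 0.15 (adjusted p = 0.00059), and 5.57 ± 1.3 FPKM in the control.

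PCK2, the mitochondrial enzyme that makes phosphoenolpyruvate, had 37.2, 50.6 and 41.2 FPKM in the TEAD1-NCOA2 libraries, against 10.6, 12.6 and 5.17 FPKM in the YAP5SA libraries. Its difference was 2.14 ± 0.30 (adjusted p = 0.00346), with 65.7 ± 9.08 FPKM in the control. BARX1, a homeobox factor of stomach and tooth development, had 12.2, 15.9 and 14.7 FPKM in the TEAD1-NCOA2 libraries, against 2.63, 2.93 and 1.55 FPKM in the YAP5SA libraries and a difference of 2.19 ± 0.19 (adjusted p = 0.00105), with 12.5 ± 0.851 FPKM in the control. In FUOM, a fucose mutarotase, a single library weighed heavily, with 13.9, 18 and 14.5 FPKM in the TEAD1-NCOA2 libraries, against 4.74, 5.38 and 0.505 FPKM in the YAP5SA libraries. Its difference was 2.11 ± 0.54 (adjusted p = 0.0243), or 1.44 without YAP5SA replicate 3, and the control had 18.3 ± 8.76 FPKM. DSC3, a cadherin of desmosomes, was steady, with 15.6, 15.9 and 16 FPKM in the TEAD1-NCOA2 libraries, against 3.31, 2.91 and 2.68 FPKM in the YAP5SA libraries. It was higher by 2.09 ± 0.084 (adjusted p = 0.00018) and above the control, at 4.55 ± 0.549 FPKM.

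On the lower side 93 genes met the rule, with the level taken from YAP5SA. Genes under 1 FPKM in all TEAD1-NCOA2 libraries could not meet it. Without YAP5SA replicate 3, too few libraries remained for them to pass the filter. SPARC, COL3A1 and COL5A2, described below, were left out in this way. Among the genes that met the rule, AMH, the anti-Müllerian hormone of the TGF-beta family, came next after YAP1. It had 12.6, 11.5 and 11.8 FPKM in the TEAD1-NCOA2 libraries, against 121, 96.3 and 63.8 FPKM in the YAP5SA libraries. Every YAP5SA library was above every TEAD1-NCOA2 library, the difference was -2.82 ± 0.23 (adjusted p = 0.00094) and the control had 18 ± 0.513 FPKM. TENM1, a teneurin of neuronal cell contacts, had 1.9, 1 and 1.45 FPKM in the TEAD1-NCOA2 libraries, against 19.4, 13.8 and 13.2 FPKM in the YAP5SA libraries. It was nearly silent in the control, at 0.167 ± 0.0464 FPKM, and the difference was -2.75 ± 0.19 (adjusted p = 0.00071). SCT, which encodes the gut hormone secretin, was similar, with 1.05, 1.91 and 2.29 FPKM in the TEAD1-NCOA2 libraries, against 13.2, 10.9 and 9.71 FPKM in the YAP5SA libraries, a difference of -2.17 ± 0.20 (adjusted p = 0.00118) and 0.34 ± 0.588 FPKM in the control. CDHR5, a cadherin of microvilli, had 1.12, 0.772 and 0.681 FPKM in the TEAD1-NCOA2 libraries, against 7.02, 6.3 and 6.46 FPKM in the YAP5SA libraries. It differed by -2.04 ± 0.11 (adjusted p = 0.00039), with 0.382 ± 0.42 FPKM in the control. SCT, CDHR5 and IRF7, which is named below, lie close together on chromosome 11, between 612553 and 627143.

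PDIA2, a protein disulfide isomerase, had 2.05, 1.22 and 2.21 FPKM in the TEAD1-NCOA2 libraries, against 19.8, 12.8 and 11.7 FPKM in the YAP5SA libraries, a difference of -2.47 ± 0.23 (adjusted p = 0.00121) over 3.71 ± 0.626 FPKM in the control. EPDR1, an ependymin-related protein, had 1.61, 1.31 and 1.55 FPKM in the TEAD1-NCOA2 libraries, against 10.2, 10.3 and 9.32 FPKM in the YAP5SA libraries and differed by -2.14 ± 0.085 (adjusted p = 0.00018), with 2.56 ± 0.395 FPKM in the control. SLC2A3, a high-affinity glucose transporter, had 1.91, 2.4 and 1.97 FPKM in the TEAD1-NCOA2 libraries, against 15, 14.2 and 9.18 FPKM in the YAP5SA libraries, and the control resembled TEAD1-NCOA2 at 2.06 ± 0.65 FPKM. Its difference was -2.13 ± 0.18 (adjusted p = 0.00109). AATK, a kinase of neurons, had 1.56, 2.04 and 1.68 FPKM in the TEAD1-NCOA2 libraries, against 12, 9.35 and 9.73 FPKM in the YAP5SA libraries, a difference of -2.04 ± 0.12 (adjusted p = 0.00048), with 4.46 ± 0.32 FPKM in the control. LGALS3BP, a secreted glycoprotein that binds galectins, had 6.3, 6.76 and 6.26 FPKM in the TEAD1-NCOA2 libraries, against 33.5, 32.9 and 27.4 FPKM in the YAP5SA libraries. Here the control, at 25.2 ± 2.14 FPKM, was nearer to YAP5SA, and the difference was -2.11 ± 0.10 (adjusted p = 0.00029).

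MTMR11, a myotubularin relative, and SV2A, a glycoprotein of synaptic vesicles, were the remaining leading genes, and both lie in the same stretch of chromosome 1. MTMR11 had 1.08, 0.99 and 0.854 FPKM in the TEAD1-NCOA2 libraries, against 9.29, 7.42 and 8.27 FPKM in the YAP5SA libraries, a difference of -2.24 ± 0.10 (adjusted p = 0.00025) with 1.64 ± 0.41 FPKM in the control. SV2A had 3.63, 3.6 and 3.56 FPKM in the TEAD1-NCOA2 libraries, against 17.6, 17 and 19.1 FPKM in the YAP5SA libraries, a difference of -2.04 ± 0.075 (adjusted p = 0.00014) with 7.86 ± 0.647 FPKM in the control. With the median of its 5 Mb window taken out, SV2A was -0.72 and not called. MTMR11 averaged under 5 FPKM over the 6 libraries, so this correction was not applied to it. All YAP5SA libraries were above all TEAD1-NCOA2 libraries in both genes, and their neighbours are described with the genome windows.

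The genes of the ATF4 response, which cells switch on when amino acids run short or proteins misfold, were, of the 40 lists, the one with the largest share of higher calls. Of 26 tested members, 15 were higher and 0 lower with TEAD1-NCOA2, beside 1.67% and 4.56% of all genes. The median difference was 1.15 (1.39 after scaling), beside -0.10 (0.10 after scaling) over all genes. The summed level of the list was 1646 to 1978 FPKM with TEAD1-NCOA2, against 719.8 to 944 FPKM with YAP5SA and 2245 to 2545 FPKM with the empty vector. The TEAD1-NCOA2 libraries lay between YAP5SA and control. When YAP5SA replicate 3 was left out, 13 members were higher and 0 lower, and PHGDH and DDIT3 lost the call.

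Members of several branches of this response were called. In serine and folate metabolism, PSAT1, which makes serine, had 185, 217 and 202 FPKM in the TEAD1-NCOA2 libraries, against 68.9, 68.2 and 37.1 FPKM in the YAP5SA libraries. MTHFD2, a mitochondrial folate enzyme, had 86.6, 102 and 95.7 FPKM in the TEAD1-NCOA2 libraries, against 28.6, 33.7 and 21 FPKM in the YAP5SA libraries. Neither overlapped, and the differences were 1.83 ± 0.26 (adjusted p = 0.00352) and 1.76 ± 0.18 (adjusted p = 0.0016), with 279 ± 33.8 FPKM and 93.4 ± 11.4 FPKM in the control. SHMT2 and PHGDH of the same route differed by 1.59 and 1.02. TRIB3, a pseudokinase that damps the response, had 20.8, 27.3 and 22.6 FPKM in the TEAD1-NCOA2 libraries, against 6.94, 7.63 and 5.41 FPKM in the YAP5SA libraries, a difference of 1.68 ± 0.15 (adjusted p = 0.00114) with 38.3 ± 3.64 FPKM in the control. The tRNA synthetase genes GARS, SARS, WARS and CARS were higher by 1.49, 1.30, 1.28 and 1.21. SLC7A11 and SLC7A5, carriers of cystine and of large neutral amino acids, were higher by 1.33 and 1.13, and the stress factors DDIT3 and CEBPG by 1.22 and 1.21. ATF4 itself averaged 365 ± 12 FPKM with TEAD1-NCOA2 and 189 ± 41.7 FPKM with YAP5SA, a difference of 0.98 ± 0.22 (adjusted p = 0.015) just under the threshold. ASNS, a classical target, was not called, at 3.95 ± 0.277 FPKM with TEAD1-NCOA2 and 2.75 ± 0.831 FPKM with YAP5SA.

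The p53 response genes were the other list with many higher calls, with 6 higher and 0 lower with TEAD1-NCOA2 of 23 tested and a median of 0.64 (0.87 after scaling). CDKN1A, which encodes the cell cycle inhibitor p21, had 40.9, 41.7 and 41.4 FPKM in the TEAD1-NCOA2 libraries, against 11.7, 11.6 and 15.1 FPKM in the YAP5SA libraries. TP53I3, a p53-induced oxidoreductase, had 7.49, 7.37 and 7.03 FPKM in the TEAD1-NCOA2 libraries, against 1.93, 1.73 and 2.19 FPKM in the YAP5SA libraries. Both were higher without overlap, by 1.63 ± 0.12 (adjusted p = 0.00077) and 1.50 ± 0.086 (adjusted p = 0.00048), with 29.6 ± 4.89 FPKM and 2.27 ± 0.733 FPKM in the control. GDF15, a stress hormone of the TGF-beta family, had 9.74, 10.8 and 9.83 FPKM in the TEAD1-NCOA2 libraries, against 2.48, 2.07 and 1.62 FPKM in the YAP5SA libraries, a difference of 1.87 ± 0.12 (adjusted p = 0.00059) with 4.36 ± 0.711 FPKM in the control. FDXR, a mitochondrial reductase, was higher by 1.35 ± 0.25 (adjusted p = 0.00766), at 24.7 ± 2.94 FPKM with TEAD1-NCOA2 and 9.41 ± 3.15 FPKM with YAP5SA and 29.5 ± 2.99 FPKM in the control. SESN2, which the ATF4 list also holds, and TP53INP1 were the other 2, at 1.09 and 1.05. With the median of its 5 Mb window taken out, SESN2 was 0.62 and not called. With that setting 5 members of this list and 14 of the ATF4 list were higher. MDM2, the ubiquitin ligase of p53, was 0.46, BAX, which permeabilizes mitochondria, 0.58 and the death receptor gene FAS 0.092, none past the threshold. HEK293T cells carry large T antigen, which binds p53.

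**Figure D3:**
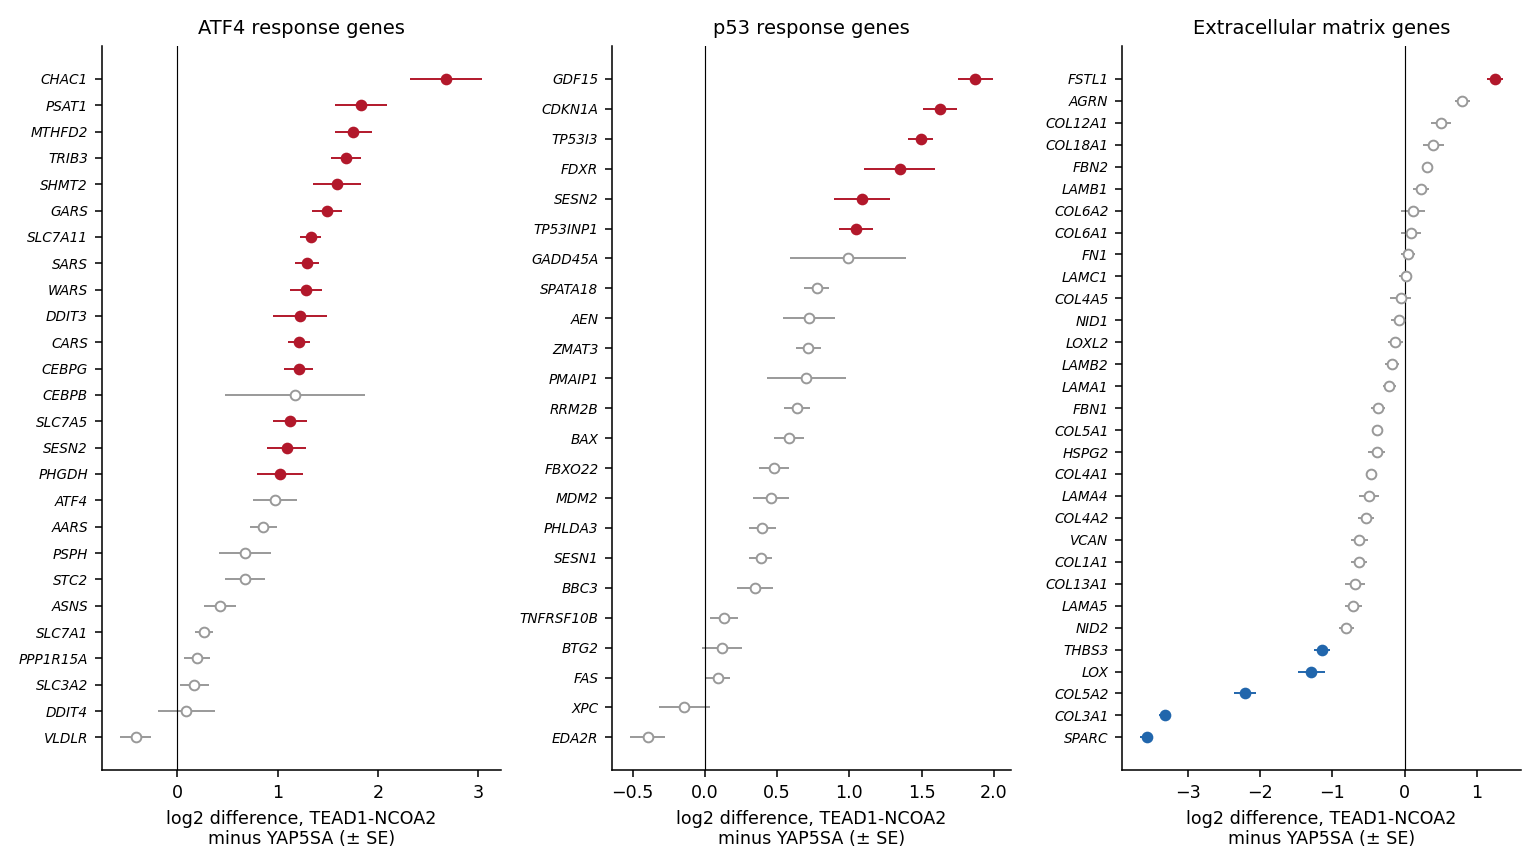
Difference, TEAD1-NCOA2 minus YAP5SA in log2(FPKM + 1), of each tested member of the ATF4 response, p53 response and extracellular matrix lists, as a point with its standard error from limma, filled red where called higher and blue where called lower. Higher calls were 15 of 26 in the ATF4 list and 6 of 23 in the p53 list, and the matrix list had 1 higher and 5 lower of 31.

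Extracellular matrix genes included SPARC and COL3A1, which had the largest negative differences among tested protein-coding genes after YAP1. Of 31 tested, 1 was higher and 5 lower with TEAD1-NCOA2, with a median of -0.38 (-0.19 after scaling). SPARC, a collagen-binding matricellular protein, had 0.45, 0.671 and 0.608 FPKM in the TEAD1-NCOA2 libraries, against 18.1, 18.4 and 16.6 FPKM in the YAP5SA libraries. COL3A1, the chain of type III collagen, had 0.263, 0.308 and 0.317 FPKM in the TEAD1-NCOA2 libraries, against 11.9, 11.3 and 12.8 FPKM in the YAP5SA libraries. Both were under 1 FPKM in every TEAD1-NCOA2 library and above 11 FPKM in every YAP5SA library, the control was at 1.1 ± 0.206 FPKM and 0.375 ± 0.0813 FPKM, and the differences were -3.57 ± 0.089 (adjusted p = 4.3e-05) and -3.32 ± 0.079 (adjusted p = 4.3e-05). COL5A2, a collagen V chain, had 0.738, 0.529 and 0.724 FPKM in the TEAD1-NCOA2 libraries, against 6.95, 5.3 and 8.06 FPKM in the YAP5SA libraries, a difference of -2.21 ± 0.15 (adjusted p = 0.00067), with 0.701 ± 0.297 FPKM in the control. COL3A1 and COL5A2 lie close together on chromosome 2. LOX, the enzyme that crosslinks collagen, was lower, at -1.29 ± 0.18 (adjusted p = 0.00347), with 3.63 ± 0.134 FPKM with TEAD1-NCOA2 and 10.6 ± 2.74 FPKM with YAP5SA and 3.51 ± 0.802 FPKM in the control. FSTL1, a secreted relative of SPARC, went the other way, at 33 ± 0.396 FPKM with TEAD1-NCOA2 and 13.4 ± 1.68 FPKM with YAP5SA and 1.25 ± 0.11 (adjusted p = 0.00109). The laminin gene LAMC1, the collagen gene COL6A1 and the fibronectin gene FN1 were not called, at 0.011, 0.09 and 0.043. SPARC, COL3A1 and COL5A2 had too few libraries over 1 FPKM to pass the filter once YAP5SA replicate 3 was left out, and with the same genes tested they differed by -3.61, -3.28 and -2.09.

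Receptors for matrix were also called lower. Integrins and collagen receptors gave 0 higher and 3 lower with TEAD1-NCOA2 of 20, with a median of -0.38 (-0.16 after scaling). DDR2, a collagen receptor kinase, had 10.1, 10.4 and 10.4 FPKM in the TEAD1-NCOA2 libraries, against 30.2, 27.8 and 25.7 FPKM in the YAP5SA libraries. Both plasmids were far above the 0.499 ± 0.14 FPKM of the control, and the difference was -1.35 ± 0.088 (adjusted p = 0.00059). ITGA4, an integrin chain for fibronectin and VCAM1, was lower, at -1.21 ± 0.087 (adjusted p = 0.00076), with 1.18 ± 0.113 FPKM with TEAD1-NCOA2 and 4.05 ± 0.286 FPKM with YAP5SA, and 0.666 ± 0.238 FPKM in the control. ITGA10, a collagen integrin chain, was lower, at -1.28 ± 0.20 (adjusted p = 0.00437), with 0.0631 ± 0.0267 FPKM with TEAD1-NCOA2 and 1.65 ± 0.744 FPKM with YAP5SA, and 0.0359 ± 0.0309 FPKM in the control, and lies in the same stretch of chromosome 1 as SV2A.

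The genes of SRF and the actin cytoskeleton were mixed, with 1 higher and 2 lower with TEAD1-NCOA2 of 24 and a median of 0.20 (0.45 after scaling). ACTA1, skeletal muscle actin, had 0.257, 0.425 and 0.361 FPKM in the TEAD1-NCOA2 libraries, against 2.8, 3.82 and 7.25 FPKM in the YAP5SA libraries, a difference of -1.98 ± 0.28 (adjusted p = 0.00336) with 0.261 ± 0.267 FPKM in the control. TPM2, a tropomyosin, had 3.74, 3.33 and 3.49 FPKM in the TEAD1-NCOA2 libraries, against 21.9, 17.3 and 10.9 FPKM in the YAP5SA libraries, a difference of -1.92 ± 0.23 (adjusted p = 0.00226) with 4.83 ± 0.866 FPKM in the control. ACTA2, smooth muscle actin, was instead higher, with 10.2, 10.4 and 10.4 FPKM in the TEAD1-NCOA2 libraries, against 2.96, 3.27 and 5.01 FPKM in the YAP5SA libraries. Its difference was 1.28 ± 0.16 (adjusted p = 0.00257), with 3.76 ± 1.17 FPKM in the control, and with window centring it was 0.99 and not called.

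Signalling lists held few calls. In the TGF-beta and BMP pathway 2 were higher and 3 lower with TEAD1-NCOA2 of 34 (median -0.16, or 0.03 after scaling). INHBE, an activin chain made under stress, was higher by 1.78 ± 0.13 (adjusted p = 0.00073), at 4.14 ± 0.208 FPKM with TEAD1-NCOA2 and 0.511 ± 0.223 FPKM with YAP5SA and 7.21 ± 1.34 FPKM in the control. TGFBR2, the type II receptor of TGF-beta, was lower, at -1.27 ± 0.082 (adjusted p = 0.00059), with 2.37 ± 0.196 FPKM with TEAD1-NCOA2 and 7.1 ± 0.401 FPKM with YAP5SA and 2.2 ± 0.467 FPKM in the control. Among EGF family ligands and receptors, 0 were higher and 1 lower with TEAD1-NCOA2 of 7 (median -0.42, or -0.21 after scaling), and the gene was the receptor ERBB2. ERBB2 had 6.07, 7.22 and 6.79 FPKM in the TEAD1-NCOA2 libraries, against 15.9, 14.7 and 16.7 FPKM in the YAP5SA libraries, a difference of -1.13 ± 0.092 (adjusted p = 0.00097), with 5.42 ± 0.418 FPKM in the control. The call was lost after scaling, at -0.90, and with window centring, at -0.65. Among Wnt feedback genes, 0 were higher and 1 lower with TEAD1-NCOA2 of 17 (median -0.42, or -0.20 after scaling), and the gene was CCND1, which encodes cyclin D1. CCND1 had 3.18, 3.8 and 3.25 FPKM in the TEAD1-NCOA2 libraries, against 9.34, 9.44 and 10.8 FPKM in the YAP5SA libraries, a difference of -1.30 ± 0.10 (adjusted p = 0.00079), with 9.69 ± 0.683 FPKM in the control.

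The Notch list had no call in either direction among 17 members (median -0.28, or -0.055 after scaling). Its most abundant genes were the transcriptional repressors HES4 and HEY1, at 161 ± 7.81 FPKM with TEAD1-NCOA2 and 103 ± 72.7 FPKM with YAP5SA for HES4 and 50.9 ± 4.18 FPKM with TEAD1-NCOA2 and 52.1 ± 15.6 FPKM with YAP5SA for HEY1. AP-1 factors had none of 14 called (median -0.06, or 0.10 after scaling), with JUN at 0.82 ± 0.19 (adjusted p = 0.0162) and JUND at 0.11 ± 0.34 (adjusted p = 0.82). After scaling, JUN was past the threshold, at 1.07. CREB and immediate early genes had none of 21 called (median -0.15, or 0.058 after scaling), with the CREB coactivator CRTC2 at -0.81 ± 0.12 (adjusted p = 0.0035) and the phosphatase DUSP1 at 0.87 ± 0.15 (adjusted p = 0.00644), and DUSP1 passed the threshold after scaling, at 1.10. In the NF-kB list none of 8 was called (median -0.36, or -0.15 after scaling), and NFKB2 and NFKBIA were 0.30 and -0.29. Interferon response genes gave 0 higher and 1 lower with TEAD1-NCOA2 of 13 (median -0.066, or 0.16 after scaling), the called gene being the interferon regulator IRF7 at 0.808 ± 0.0351 FPKM with TEAD1-NCOA2 and 4.2 ± 0.181 FPKM with YAP5SA, a difference of -1.52 ± 0.077 (adjusted p = 0.00032). Among the signalling and receptor lists, ITGA2, RNF43 and IFITM1 were also lower when YAP5SA replicate 3 was left out, at -1.01 for RNF43 and -1.15 for IFITM1.

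Cell cycle lists leaned to TEAD1-NCOA2 in their medians and held few calls. S phase genes gave 2 higher and 0 lower with TEAD1-NCOA2 of 35, with a median of 0.26 (0.51 after scaling). TYMS, thymidylate synthase, had 29.5, 27 and 26.9 FPKM in the TEAD1-NCOA2 libraries, against 9.19, 9.96 and 11.5 FPKM in the YAP5SA libraries, a difference of 1.36 ± 0.10 (adjusted p = 0.00085), with 15.1 ± 1.13 FPKM in the control. The helicase genes MCM2 and MCM7 were at 0.29 and 0.26. Mitotic genes gave 1 higher and 0 lower with TEAD1-NCOA2 of 31 (median 0.13, or 0.37 after scaling). That gene was the spindle checkpoint gene MAD2L1 at 1.10 ± 0.27 (adjusted p = 0.0199), which was 0.78 and not called without YAP5SA replicate 3, where NUSAP1, a microtubule-binding protein, was instead lower, at -1.05.

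Glucose genes were lower with TEAD1-NCOA2 where they were called. The glycolysis and glucose sensing list gave 0 higher and 4 lower with TEAD1-NCOA2 of 26 (median -0.0089, or 0.24 after scaling), which were the transporters SLC2A3 and SLC2A1, the regulator PFKFB4 and TXNIP. PFKFB4, which sets the level of fructose bisphosphate, was 2.5 ± 0.243 FPKM with TEAD1-NCOA2 and 7.64 ± 1.59 FPKM with YAP5SA, a difference of -1.29 ± 0.15 (adjusted p = 0.00219), with 3.8 ± 0.641 FPKM in the control. SLC2A1 was 10.9 ± 0.207 FPKM with TEAD1-NCOA2 and 24.9 ± 5.81 FPKM with YAP5SA, a difference of -1.09 ± 0.18 (adjusted p = 0.00507), with 7.48 ± 0.341 FPKM in the control, and -0.86 after scaling, which was not called. TXNIP, an arrestin that restrains glucose uptake, had 6.16, 7.54 and 6.72 FPKM in the TEAD1-NCOA2 libraries, against 22.4, 24.6 and 14.4 FPKM in the YAP5SA libraries, and both groups were far below the 109 ± 7.26 FPKM of the control. Its difference of -1.43 ± 0.20 (adjusted p = 0.00337) was -0.12 once the surrounding window of chromosome 1 was taken out. The list median was -0.25, with the same number of calls, when YAP5SA replicate 3 was left out. None of the glycolytic enzymes themselves was called over all 6 libraries. Cholesterol synthesis had none of 25 called (median -0.12, or 0.12 after scaling), with SREBF2 at -0.041 and INSIG1 at -0.17. With YAP5SA replicate 3 left out, the cholesterol median was -0.33 and SQLE, squalene epoxidase, was lower, at -1.21.

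Chaperone and housekeeping lists held few calls, and some rested on YAP5SA replicate 3. ER chaperones had none of 20 called (median 0.10, or 0.34 after scaling), with CANX at 0.87 ± 0.13 (adjusted p = 0.00399) and HSP90B1 at 0.12 ± 0.22 (adjusted p = 0.69). CANX passed the threshold after scaling, at 1.12, and without YAP5SA replicate 3 the list median was -0.082. In the heat shock list 1 was higher and 0 lower with TEAD1-NCOA2 of 20 (median 0.081, or 0.32 after scaling), and the gene was HSPD1, whose product works in mitochondria. It averaged 248 ± 23.1 FPKM with TEAD1-NCOA2 and 128 ± 40.3 FPKM with YAP5SA, a difference just past the threshold (adjusted p = 0.0289), and, without YAP5SA replicate 3, the difference was 0.71 and not called, at a list median of -0.11. Cytosolic ribosomal protein genes had 2 higher and 0 lower with TEAD1-NCOA2 of 82, with a median of 0.57 (0.81 after scaling). The 2 genes were RPL22 and RPL4, at 1.37 ± 0.37 (adjusted p = 0.0284) and 1.10 ± 0.28 (adjusted p = 0.0235). Their summed level was 25107 to 25304 FPKM with TEAD1-NCOA2, against 8184 to 25232 FPKM with YAP5SA and 29667 to 47711 FPKM with the empty vector, and the lowest YAP5SA value belonged to replicate 3. Without that library the median was 0.021, neither RPL22 nor RPL4 was called, and RPL22L1 and RPL38 were lower, at -1.14 and -1.10. Reads of ribosomal protein genes and their pseudogenes cannot be told apart with certainty.

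The 13 protein genes of the mitochondrial chromosome had no call over the 6 libraries, with a median of 0.82 (1.07 after scaling), and 4 were higher without YAP5SA replicate 3. MT-CO1 had 10855, 18565 and 13674 FPKM in the TEAD1-NCOA2 libraries, against 5916, 7547 and 5477 FPKM in the YAP5SA libraries, a difference of 1.16 ± 0.86 (adjusted p = 0.32). MT-CO3 had 6101, 10394 and 7875 FPKM in the TEAD1-NCOA2 libraries, against 3104, 3920.4 and 2372 FPKM in the YAP5SA libraries, a difference of 1.37 ± 0.65 (adjusted p = 0.14). Nuclear respiratory chain genes had none of 40 called (median 0.47, or 0.72 after scaling), with ATP5F1B at 0.52 and COX8A at 0.78. Without YAP5SA replicate 3 the median was 0.00405, COX8A was 0.36 and COX6A1 was lower, at -1.23. Mitochondrial ribosomal protein genes had none of 77 (median 0.14, or 0.36 after scaling), with MRPL37 at 0.40 and MRPS34 at 0.54. Leaving out that library turned their median to -0.074 and MRPS34 to -0.24. Proteasome subunit genes had none of 29 (median 0.22, or 0.47 after scaling), with PSMB4 at 0.22 and PSMB3 at -0.071. Without the same library the proteasome median was 0.089, PSMB4 was -0.15 and PSMB3 -0.65. Splicing factor genes had none of 36 (median 0.12, or 0.37 after scaling), with HNRNPA1 at 0.61 and HNRNPK at 0.11.

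Among clustered gene families, zinc finger genes of chromosome 19, most of them repressors with a KRAB domain, had 0 higher and 9 lower with TEAD1-NCOA2 of 149, with a median of -0.44 (-0.27 after scaling). The 9 were 6.04% of those tested, beside 4.56% of all genes and 2.84% of protein-coding genes, and 6 were lower without YAP5SA replicate 3. ZNF331 was 0.294 ± 0.106 FPKM with TEAD1-NCOA2 and 2.57 ± 0.253 FPKM with YAP5SA, a difference of -1.46 ± 0.11 (adjusted p = 0.0008), and ZNF460 was -1.43, ZNF805 -1.25 and ZNF91 -1.21. They are weakly expressed and share repeated finger motifs, so that reads of close relatives may be split between them. ZNF460 and ZNF805 also lie close together. HOX genes had none of 32 called (median -0.24, or -0.026 after scaling), with HOXB9 at 0.69 and HOXA5 at -0.068. Histone cluster genes had 1 higher and 0 lower with TEAD1-NCOA2 of 17 (median 0.17, or 0.34 after scaling), the gene being HIST3H2A with 27.9, 24.7 and 26.6 FPKM in the TEAD1-NCOA2 libraries, against 8.97, 8.53 and 3.78 FPKM in the YAP5SA libraries. Its difference was 1.83 ± 0.28 (adjusted p = 0.0045), with 42 ± 5.82 FPKM in the control. None of the 53 clustered protocadherin genes passed the filter, and 51 stayed under 0.5 FPKM in all 6 libraries.

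Several defining markers of other cell types were at or near 0. Of 16 leukocyte genes 1 was tested, none was called, CD2, MS4A1 and TYROBP were listed at 0 in all 6 libraries, and the sum of the list was 2.35 to 3.11 FPKM with TEAD1-NCOA2, against 5.08 to 6.61 FPKM with YAP5SA and 4.99 to 6.8 FPKM with the empty vector. Of 13 endothelial genes 2 were tested and none called, namely EGFL7 and FLT1. EGFL7, a secreted protein, was 10.2 ± 1.16 FPKM with TEAD1-NCOA2 and 11.8 ± 7.16 FPKM with YAP5SA and 46 ± 16.6 FPKM in the control, a difference of 0.039 that was -0.58 without YAP5SA replicate 3, and FLT1 differed by 0.26. PECAM1, a defining adhesion molecule, averaged 0.00275 ± 0.00476 FPKM with TEAD1-NCOA2 and 0.0583 ± 0.0505 FPKM with YAP5SA. The sum of the endothelial list was 11.3 to 13.3 FPKM with TEAD1-NCOA2, against 7.87 to 19.9 FPKM with YAP5SA and 31.2 to 64.9 FPKM with the empty vector. Kidney lineage genes had none of 6 tested called (median -0.35, or -0.14 after scaling). SIX2 was at 13.9 ± 0.849 FPKM with TEAD1-NCOA2 and 10.3 ± 0.771 FPKM with YAP5SA and SALL1 at 5.22 ± 0.51 FPKM with TEAD1-NCOA2 and 10.9 ± 0.911 FPKM with YAP5SA. UMOD of differentiated kidney was listed at 0 in all 6 libraries.

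Mesenchymal genes had none of 8 called (median 0.053, or 0.28 after scaling), with VIM at 0.86 ± 0.33 (adjusted p = 0.0822) and FBLN1 at -0.79 ± 0.14 (adjusted p = 0.00752). Scaling took VIM past the threshold, at 1.10. Epithelial genes gave 1 higher and 1 lower with TEAD1-NCOA2 of 9 (median -0.39, or -0.20 after scaling). ESRP2, a splicing regulator of epithelia, had 3.14, 3.54 and 3.3 FPKM in the TEAD1-NCOA2 libraries, against 0.277, 0.217 and 0.445 FPKM in the YAP5SA libraries, a difference of 1.72 ± 0.10 (adjusted p = 0.00049), with 3.08 ± 0.554 FPKM in the control, and MARVELD2, of tight junctions, was also higher without YAP5SA replicate 3, at 1.06. KRT8, a keratin of simple epithelia, was lower, at -1.09 ± 0.084 (adjusted p = 0.00086), -0.86 after scaling and then not called. Neuronal genes gave 2 higher and 1 lower with TEAD1-NCOA2 of 7 (median -0.21, or -0.02 after scaling). Beside NEFL, NEFM of the same filament was 15.3 ± 2.11 FPKM with TEAD1-NCOA2 and 5.76 ± 0.844 FPKM with YAP5SA, a difference of 1.27 ± 0.14 (adjusted p = 0.00174) with 94.6 ± 14.1 FPKM in the control, and SYP of synaptic vesicles was 1.52 ± 0.109 FPKM with TEAD1-NCOA2 and 5.2 ± 0.713 FPKM with YAP5SA, a difference of -1.29 ± 0.11 (adjusted p = 0.00102) with 5.14 ± 0.839 FPKM in the control. Skeletal muscle genes gave 0 higher and 3 lower with TEAD1-NCOA2 of 11 tested (median -0.57, or -0.35 after scaling). MYH3, embryonic myosin, was 0.645 ± 0.0842 FPKM with TEAD1-NCOA2 and 4.09 ± 1.35 FPKM with YAP5SA, a difference of -1.60 ± 0.19 (adjusted p = 0.00213), NEB, the giant thin-filament protein nebulin, -1.13 and the factor MYOD1 -1.06. NEB was low, at 0.0945 FPKM with TEAD1-NCOA2 and 1.42 FPKM with YAP5SA. MYOD1 averaged 0.311 FPKM with TEAD1-NCOA2, 1.75 FPKM with YAP5SA and 2.93 FPKM in the control. After scaling MYOD1 was -0.94 and not called.

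**Figure D4:**
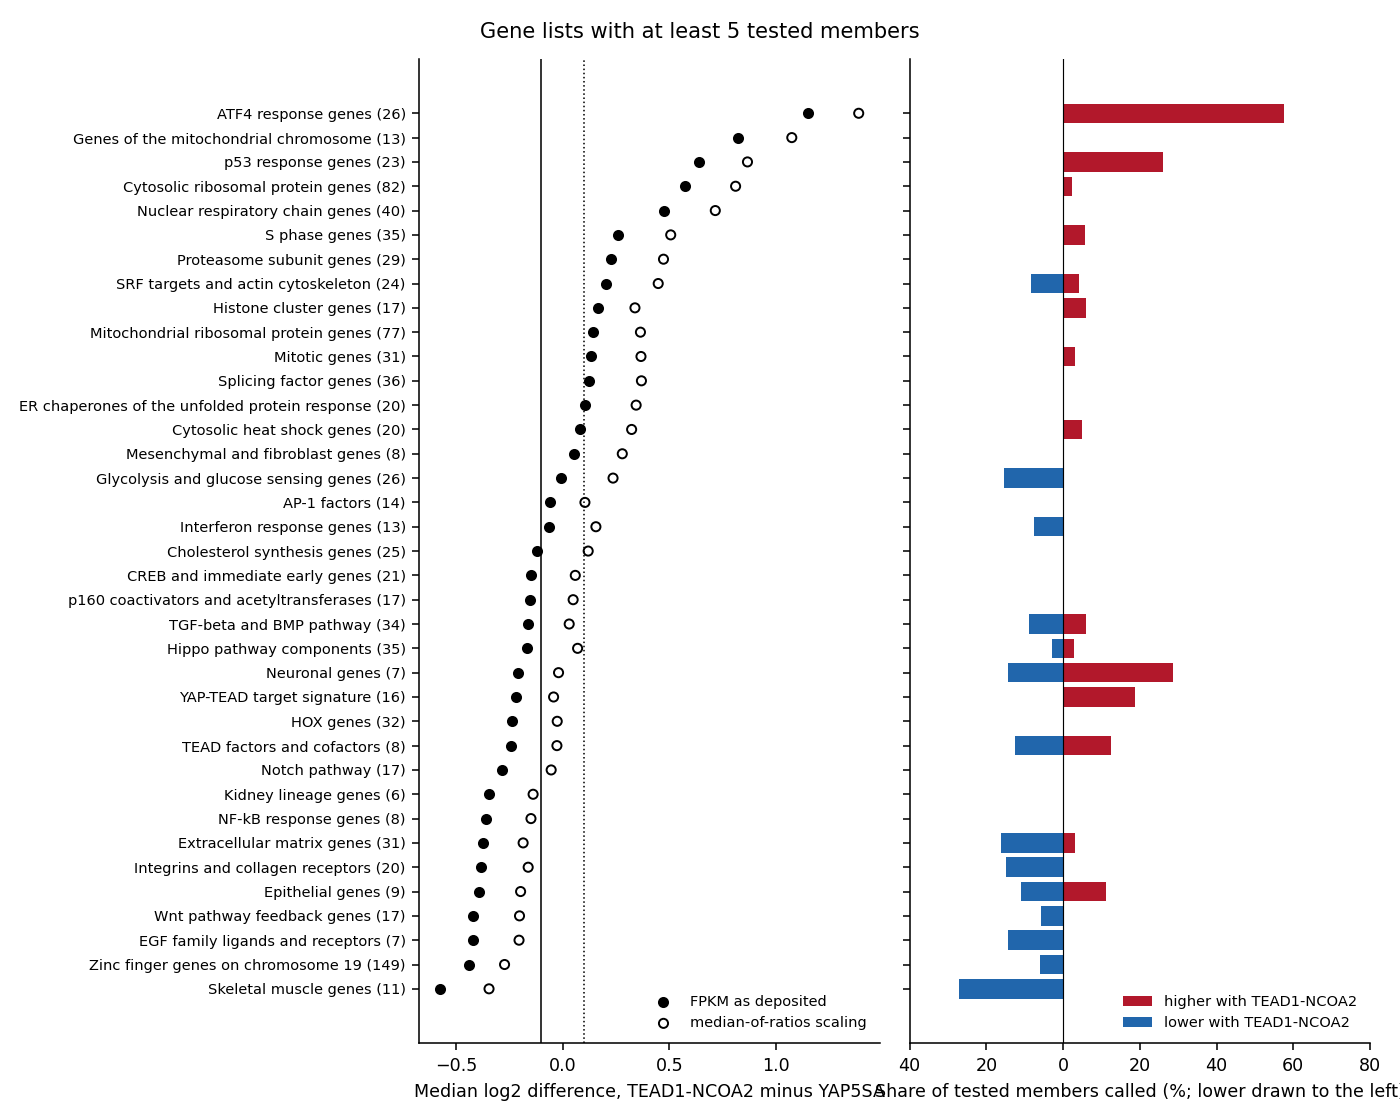
Median log2 difference, TEAD1-NCOA2 minus YAP5SA, of the tested members of each gene list with at least 5 tested members (left; filled, FPKM as deposited; open, median-of-ratios scaling; lines, the median of all tested genes, solid as deposited and dotted scaled), and the share of tested members called higher or lower (right), with the number tested in parentheses. The ATF4 list stood at 1.15 with 15 of 26 members higher, and the skeletal muscle list at -0.57 with 3 of 11 lower.

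Differences were also arranged along the genome. Protein-coding genes that reached 5 FPKM in 3 or more of the 6 libraries were placed in windows of 5 Mb, and the 335 windows with at least 8 such genes, 6425 genes in all, were read in every library as the median log2 difference from the control mean, centred on the median of the library. This view was chosen after values had been seen. The SD of a library over windows was 0.24 to 0.29 in the TEAD1-NCOA2 libraries, 0.34 to 0.42 in the YAP5SA libraries and 0.050 to 0.057 in the control libraries, whose mean served as the baseline. In 18 windows, 5.37% of 335, the groups did not overlap and differed by more than 0.5. Of these, 12 were higher with TEAD1-NCOA2 and 6 lower.

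The strongest lower window was chromosome 1 from 145 to 150 Mb (GRCh38). Its median was 0.19, 0.035 and 0.094 in the TEAD1-NCOA2 libraries, against 1.41, 1.35 and 1.42 in the YAP5SA libraries. All YAP5SA libraries stood more than 1 above both the control and TEAD1-NCOA2, and replicate 3 lay beside the others. After centring on the library medians, all 22 genes of the window were lower with TEAD1-NCOA2, and 16 were called. SF3B4, a subunit of the splicing machinery, had 38.1, 37.2 and 33.3 FPKM in the TEAD1-NCOA2 libraries, against 109, 126 and 160.1 FPKM in the YAP5SA libraries. BCL9, a coactivator of beta-catenin, had 7.02, 6.38 and 6.18 FPKM in the TEAD1-NCOA2 libraries, against 17.6, 21.6 and 30.2 FPKM in the YAP5SA libraries. The differences were -1.82 ± 0.17 (adjusted p = 0.00118) and -1.65 ± 0.19 (adjusted p = 0.00203), with 42.1 ± 1 FPKM and 5.76 ± 0.304 FPKM in the control. OTUD7B, a deubiquitinase, differed by -1.82 ± 0.14 (adjusted p = 0.00085), and NBPF12, of a repeated gene family whose copies share reads, by -1.87 ± 0.16 (adjusted p = 0.00109). The chromatin remodeller gene CHD1L was not called, at -0.55. SV2A, MTMR11, TXNIP and ITGA10, named above, lie in this window, ITGA10 at too low a level to be among its 22 genes. The next windows, 150 to 155 Mb and 155 to 160 Mb, differed by -0.35 and -0.35.

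The strongest higher window was chromosome 18 from 35 to 40 Mb. Its median was 0.88, 0.75 and 0.80 in the TEAD1-NCOA2 libraries, against -0.55, -0.68 and -0.60 in the YAP5SA libraries. The groups stood on opposite sides of the control, all 10 genes were higher with TEAD1-NCOA2, and 7 were called. TPGS2, of the tubulin polyglutamylase, had 15.4, 16.4 and 16 FPKM in the TEAD1-NCOA2 libraries, against 3.51, 3.98 and 3.61 FPKM in the YAP5SA libraries. ELP2, a subunit of Elongator, had 16.2, 17.2 and 16.6 FPKM in the TEAD1-NCOA2 libraries, against 4.29, 5.07 and 4.38 FPKM in the YAP5SA libraries. Differences were 1.85 ± 0.076 (adjusted p = 0.00019) and 1.67 ± 0.084 (adjusted p = 0.00032), with 12.8 ± 1.84 FPKM and 13.2 ± 0.809 FPKM in the control. RPRD1A, which binds the tail of RNA polymerase II, was higher by 1.60, the molybdenum cofactor enzyme MOCOS by 1.57 and the glycosyltransferase gene GALNT1 by 1.42.

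Longer stretches moved together on chromosome 1. Of its windows between 0 and 30 Mb, those from 5, 20 and 25 Mb passed 0.5, and the 6 windows differed by 0.32 to 0.59. In the window from 20 Mb, the values were -0.16, -0.084 and -0.06 in the TEAD1-NCOA2 libraries, against -0.74, -0.68 and -0.66 in the YAP5SA libraries. The YAP5SA libraries were below control there and TEAD1-NCOA2 libraries near it. On chromosome 4, the windows from 75, 80 and 105 Mb differed by 0.68, 0.63 and 0.76, with all 10 genes of the first and all 13 of the last on the same side. The window of CTGF, chromosome 6 from 130 to 135 Mb, was lower in its median while CTGF was higher. Its median was 0.25, 0.19 and 0.25 in the TEAD1-NCOA2 libraries, against 1.06, 0.96 and 0.88 in the YAP5SA libraries, and 8 of its 12 genes were lower after centring.

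The 12 higher windows held 345 tested genes, of which 36 were called higher, and the 6 lower windows held 179, of which 42 were called lower, beside 244 and 666 of all 14610. The windows were picked by the medians of genes among these in the same libraries. An excess of calls, or genes of a window lying on the same side, therefore follows from the choice and is no separate evidence. When the median of each window was taken out of its genes with a mean of at least 5 FPKM, a setting added after the data were seen, 112 of 175 higher calls and 115 of 162 lower calls at that level were kept. CTGF was then 1.95 and OXCT1 3.47. PSAT1 lay outside the windows, so its 1.83 was left unchanged and tells nothing of a window. The kept calls include such genes. Windows shifted by 2.5 Mb gave 7 higher and 4 lower, windows of 10 Mb 6 higher and 3 lower, and windows of 5 Mb with genes from 1 FPKM 10 higher and 2 lower of 467. DNA was not measured in these libraries, and whether the number of copies of these regions differed between the cells of the groups was not tested.

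**Figure D5:**
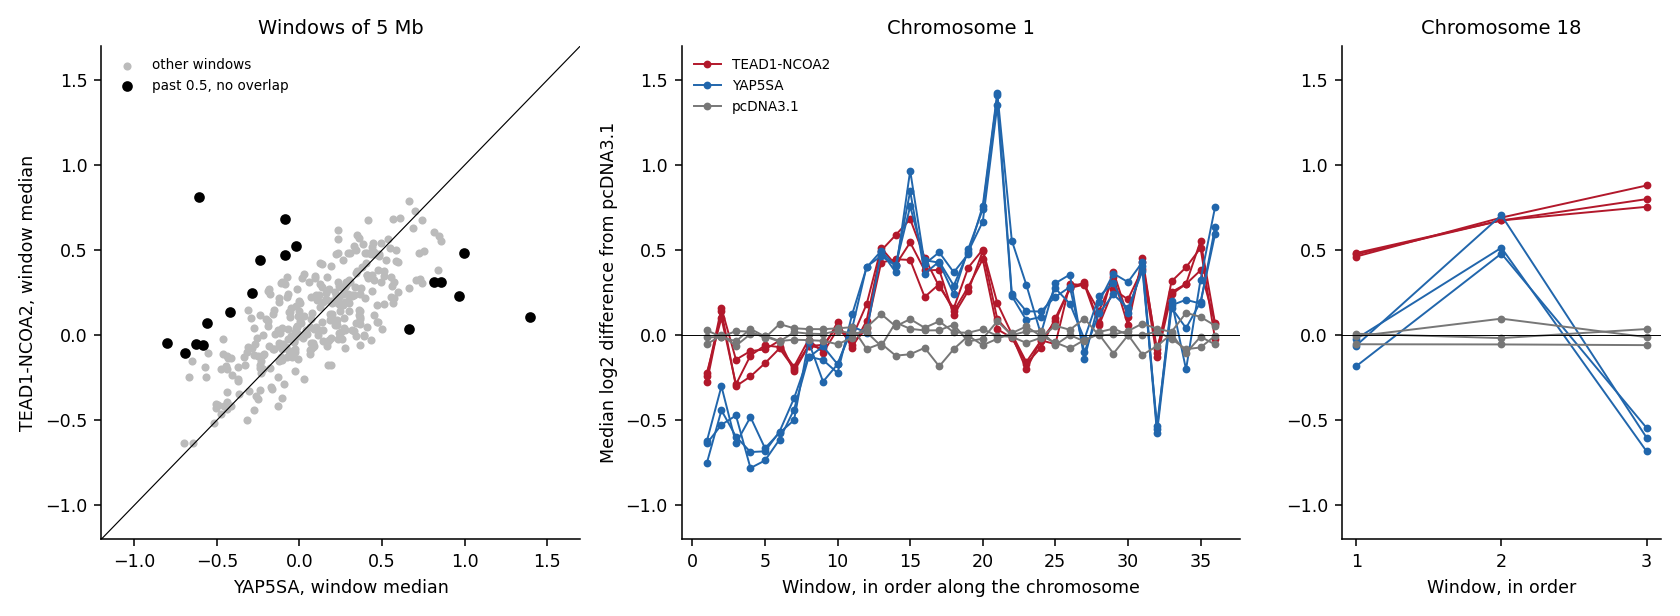
Median log2 difference from the pcDNA3.1 mean of genes in windows of 5 Mb, centred per library. Left, TEAD1-NCOA2 mean against YAP5SA mean in 335 windows, with the 18 that differed by more than 0.5 without overlap in black and the line of equality; middle and right, the windows of chromosomes 1 and 18 in order, with a line per library for TEAD1-NCOA2, YAP5SA and pcDNA3.1. On chromosome 1 all 3 YAP5SA libraries peak at 1.35 to 1.42 in a window where TEAD1-NCOA2 stays at 0.04 to 0.19.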

How the data were processed

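RNA was sequenced from 12 libraries of HEK293T cells, 3 for each of 4 groups, and the 6 libraries of TEAD1-NCOA2 and YAP5SA entered the comparison. The authors deposited FPKM values per gene as 4 tables, 1 for each group, and may have normalized them separately. Aligner and counter: not given in the sources used here. Although GRCm38 and mm10, which are mouse builds, stand in the submitters' processing notes, all 58735 gene IDs and coordinates matched the human GENCODE release 29 (GRCh38), which was used for positions. The deposited tables also gave a gene length. The number of fragments assigned to genes is unknown for the YAP5SA libraries, so the values were tested as FPKM and not as counts.

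Tables were joined by gene ID. Genes with 1 FPKM or more in 3 or more of the 6 libraries were tested on log2(FPKM + 1) with limma 3.58.1 (empirical Bayes with a mean-variance trend) in R 4.3.3, with Benjamini-Hochberg adjustment over all tested genes, and were called at an adjusted p under 0.05 and a log2 difference past 1. The study's own tests of expression changes were Student's tests and were not repeated. The script was tested on simulated data. Named genes were the transfected and target genes, the 12 protein-coding genes with the largest difference in each direction (called, without overlap, the higher group averaging 5 FPKM or more, and called also with median-of-ratios scaling and without YAP5SA replicate 3), and up to 4 called members of each list, or 2 abundant members where none was called; further genes were named after their values were seen. The 40 gene lists and the members of the comparison were chosen with earlier results of these data known. Genome windows, window centring and the settings that kept the same genes tested were added after the data were seen. Other settings were scaling by median of ratios, quantiles and TPM, the pseudocount, the filter, the samples fitted, a length and GC correction, leaving out each library and a replicate block. Promoter sequences came from RefSeq on GRCh38.p14. No column of per-sample values was left unmatched. A few genes are not reported here.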

Additional observations from a re-analysis of the deposited data

How the results depend on the processing

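Over all genes, 244 were higher and 666 lower with TEAD1-NCOA2. Scaling moved both counts, to 523 higher and 413 lower with median-of-ratios scaling, and to 377 lower with quantile normalization. On the TPM scale 3994 genes were lower, and 3492 when transfected and mitochondrial genes were left out of the TPM total. A pseudocount of 0.1 gave 1454 lower genes and 0.5 gave 1091. The length and GC correction gave 248 higher and 588 lower genes. It kept 84.8% of the 244 higher calls and 78.8% of the 666 lower calls. A minimum of 5 FPKM gave 203 lower genes and protein-coding genes alone 329, by testing fewer genes. Leaving out a library gave 155 to 293 higher and 312 to 713 lower genes, the low ends without TEAD1-NCOA2 replicate 2 (155 higher) and without YAP5SA replicate 1 (312 lower). Without YAP5SA replicate 2, 372 were lower. The last 2 settings tested 13514 and 13526 genes, and with the same 14610 genes tested 593 and 672 were lower. Without YAP5SA replicate 3 and with scaling, 405 were higher and 246 lower, and with the same genes tested 407 were higher and 454 lower. With the replicate block 242 were higher and 654 lower, but same-numbered libraries did not deviate together (r of 0.022, 0.094 and -0.049), so that they share only a number. The cause of these shifts was otherwise not tested. Of 72 called genes named in the text by rule, 50 kept the call in every alternative that tested them and 0 reversed. The leading genes among them had been chosen for keeping the call with median-of-ratios scaling and without YAP5SA replicate 3. This count is therefore partly fixed by the choice. Under window centring 9 called genes outside the named ones changed sign. That setting left the difference unchanged for genes with a mean under 5 FPKM or outside the windows, named ones among them. The unknown number of gene-assigned fragments in the YAP5SA libraries and 3 libraries per group limit what can be told of weakly expressed genes.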
